A study of Homo sapiens with 12 samples.

Results

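The HSP70 and HSP110 chaperones were followed through 12 RNA-seq libraries as 10 genes: HSPA1A, HSPA1B, HSPA1L, HSPA2, HSPA6, HSPA8 and HSPA13 of the HSP70 family, and HSPA4, HSPA4L and HSPH1 of the HSP110 family. They were taken by symbol from the deposited gene table, with the counts of all Ensembl identifiers of a symbol added together, and they are 10 of the 36486 rows that this summing leaves. TOV-112D is an ovarian carcinoma line that expresses the p53 missense mutant R175H, as its library labels also state. It was treated for 3 h with the vehicle DMSO, with UCI-1001 or with UCI-1014, with 2 libraries of each. UCI-1001 is a pyrimidine trione found in a computational screen, and UCI-1014 is an analog that carries a methoxy group in place of its nitro group. The study's results give a dose of 10 µM for UCI-1001 but none for the UCI-1014 libraries, so the doses of both compounds are not known to match. Saos-2, an osteosarcoma line without p53, contributed 3 libraries as the unmodified parental line (p53-null) and 3 after stable lentiviral insertion of wild-type p53 that doxycycline switches on (p53-WT). The labels give 16 h of induction for both Saos-2 groups, and it is not stated whether the p53-null cells received doxycycline. Nothing says that libraries of a group came from separate cultures, so p-values measure the spread between these libraries, which may be technical.

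HSP70 proteins bind unfolded stretches of other proteins and release them in a cycle driven by ATP. J-domain proteins (the DNAJ genes) deliver the clients and start ATP hydrolysis, and HSP110 proteins, distant relatives of HSP70, act as nucleotide exchange factors that reopen the cycle. HSPA8 is the constitutive HSP70 of the cytosol, whereas HSPA1A, HSPA1B and HSPA6 are known as the stress-inducible ones, transcribed when heat shock factor 1 (HSF1) binds heat shock elements in their promoters, which are inverted repeats of the letters GAA. Tumour lines commonly contain much HSP70.

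Library totals were 17762027 to 20717898 counts in TOV-112D and 19593655 to 24629558 counts in Saos-2. CDKN1A, a cell cycle inhibitor known to respond to p53, had 56.9 to 79.1 CPM (counts per 1000000, scaled with edgeR's TMM factors within a cell line) in the p53-null libraries and 7921 to 9039 CPM in the p53-WT libraries, which did not go against the labels. Each line's markers of its own tissue of origin were sparse, and each list had the larger sum in the other line. Of 9 ovarian, epithelial and Muellerian markers, 3 exceeded 1 CPM in each TOV-112D group, their sum lay between 4.17 and 6.65 CPM, and KRT18 was at 0 in all 6 libraries, whereas the same sum in Saos-2 reached 722 to 1090.1 CPM. Most of the Saos-2 sum came from KRT8 (194 to 568 CPM) and KRT18 (402 to 559 CPM). Of 8 osteoblast markers, 3 exceeded 1 CPM in p53-null and 2 in p53-WT cells, with SP7 at 0 in both groups. Their sum was 26.2 to 50.5 CPM in Saos-2 beside 58.2 to 63.5 CPM in TOV-112D. Most of the TOV-112D sum came from COL1A1 (at least 47.7 CPM in each library, beside 0.397 to 1.84 CPM in Saos-2). SPP1 went the other way, with 13.5 to 44.7 CPM in Saos-2 and 0 to 0.657 CPM in TOV-112D. The sum of 4 leukocyte markers lay between 0.441 and 3.04 CPM over all 12 libraries. In the Saos-2 pair, replicate 1 of each group stood apart: over all genes, the chi-square per degree of freedom between it and the other replicates was 23.0 to 38.4, against 3.09 to 3.79 between replicates 2 and 3.

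The upstream sequences of the members are shown because the members differ in how many of the letter patterns of a heat shock element they hold. RefSeq windows on GRCh38.p14 matched all 10 genes, with 3 windows for HSPA4L and 12 in all. In the 250 bases before the start, the pattern of adjoining inverted repeats GAANNTTC or TTCNNGAA was sought on both strands (each reads the same on either strand), and the longer pattern GAANNTTCNNGAA or its complement TTCNNGAANNTTC, which contains both shorter ones. Of all 35116 windows, 11.6% hold the shorter and 0.441% the longer pattern. The shorter pattern is in a window of 6 of the 10 members (HSPA1A, HSPA1B, HSPA1L, HSPA4L, HSPA6 and HSPA8), and the longer one is in 2 of them, HSPA6 and HSPA8. The percentages are per window and these counts are per gene, and HSPA4L counts through 1 of its 3 windows. The windows of 5 members follow, 5′ to 3′ on the strand of the gene and ending at the base before the start, with every match in capitals and all other bases in lower case.
HSPA1A, chr6:31815293-31815542, plus strand: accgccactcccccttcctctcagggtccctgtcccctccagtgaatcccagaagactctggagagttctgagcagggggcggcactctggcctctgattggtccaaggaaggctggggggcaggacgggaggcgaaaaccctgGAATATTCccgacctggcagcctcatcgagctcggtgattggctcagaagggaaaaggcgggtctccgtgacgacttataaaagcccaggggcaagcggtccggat
HSPA1B, chr6:31827488-31827737, plus strand: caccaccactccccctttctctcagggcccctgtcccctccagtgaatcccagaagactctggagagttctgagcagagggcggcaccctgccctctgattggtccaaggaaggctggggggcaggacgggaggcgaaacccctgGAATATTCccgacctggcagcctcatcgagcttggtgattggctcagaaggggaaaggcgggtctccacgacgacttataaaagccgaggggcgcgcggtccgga
HSPA6, chr1:161524290-161524539, plus strand: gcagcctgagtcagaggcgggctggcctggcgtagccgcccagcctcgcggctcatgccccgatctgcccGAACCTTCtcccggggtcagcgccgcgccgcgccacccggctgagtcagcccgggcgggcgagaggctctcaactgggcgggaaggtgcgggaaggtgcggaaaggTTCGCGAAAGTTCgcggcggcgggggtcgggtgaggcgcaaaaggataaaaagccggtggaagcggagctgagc
HSPA8, chr11:123062137-123062386, minus strand: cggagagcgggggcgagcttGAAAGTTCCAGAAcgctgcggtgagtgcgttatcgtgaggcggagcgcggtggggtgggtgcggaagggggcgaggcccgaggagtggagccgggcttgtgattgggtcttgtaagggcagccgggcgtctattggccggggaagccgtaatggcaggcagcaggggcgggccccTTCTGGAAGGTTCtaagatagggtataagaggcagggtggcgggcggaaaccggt
HSPH1, chr13:31162389-31162638, minus strand: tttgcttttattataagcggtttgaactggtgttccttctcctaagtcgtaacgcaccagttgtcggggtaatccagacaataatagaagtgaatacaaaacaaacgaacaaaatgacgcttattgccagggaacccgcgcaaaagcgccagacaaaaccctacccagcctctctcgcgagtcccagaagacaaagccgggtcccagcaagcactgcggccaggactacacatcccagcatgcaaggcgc

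The windows of HSPA1A and HSPA1B are nearly the same sequence, with 93.6% of the aligned positions identical, and each holds the match GAATATTC before the start (106 to 99 bases in HSPA1A, 105 to 98 bases in HSPA1B). HSPA6, the member with the lowest level without treatment, has TTCGCGAAAGTTC at 74 to 62 bases. HSPA8 has TTCTGGAAGGTTC at 55 to 43 bases and GAAAGTTCCAGAA at 230 to 218 bases. HSPH1 is shown as a gene that rose with both compounds and has no match in this window, which says only that these letters are not in these 250 bases. HSPA1L and HSPA1A are read in opposite directions from starts 260 bases apart on chromosome 6, so that HSPA1L's window covers the same stretch as HSPA1A's and the same match. A match is a description of letters, not evidence that a factor bound there.

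HSPA1A and HSPA1B lie 12195 bases apart in the major histocompatibility complex on chromosome 6 and encode HSP70 proteins that are all but identical. Of the 2370 stretches of 31 bases (the default length that kallisto matches) in the HSPA1A transcript, 76.9% also occur in HSPA1B, 4.64% in HSPA1L and 0.169% in HSPA6, so the division of reads between the first pair is uncertain. The annotation used by the authors also holds this region under several identifiers, 5 each for HSPA1A, HSPA1B and HSPA1L. In TOV-112D, 99.9% of the HSPA1A counts were under ENSG00000237724, and in Saos-2 99.8% were under ENSG00000235941. The identifier of HSPA1A on the primary chromosome 6 assembly, ENSG00000204389 (31815543 to 31817946, plus strand), held between 0 and 44 counts per library. HSPA1B was divided in the same manner, with 98.5% under ENSG00000224501 in TOV-112D and 89.5% under ENSG00000232804 in Saos-2, where the leading share varied from 78.6% to 97.7% between libraries. HSPA1L counts in TOV-112D were split evenly (50% each) between ENSG00000206383 and ENSG00000236251, and in Saos-2 all were under ENSG00000226704. On the primary assembly HSPA1B lies at chr6:31827738-31830254 (plus strand) and HSPA1L at chr6:31809619-31815283 (minus strand). All values below use the sum over the identifiers of a symbol. The genes with 1 identifier each are HSPA6 (chr1:161524540-161526894, plus strand), HSPA8 (chr11:123057489-123063230, minus), HSPH1 (chr13:31134973-31162388, minus), HSPA4 (chr5:133052013-133106449, plus), HSPA4L (chr4:127781821-127840733, plus), HSPA2 (chr14:64535905-64546173, plus) and HSPA13 (chr21:14371115-14383484, minus), as placed on GRCh38 by GENCODE.

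**Figure D1:**
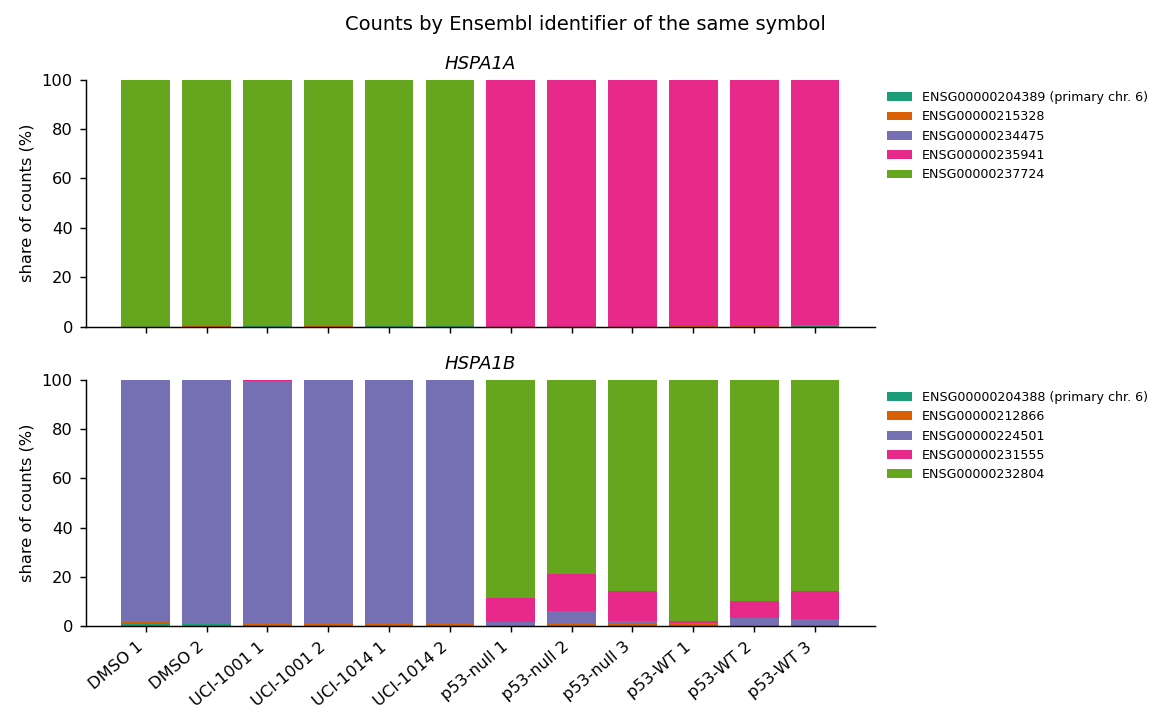
Share of the counts of HSPA1A (top) and HSPA1B (bottom) held by each of their 5 Ensembl identifiers, in percent, for each of the 12 libraries. One identifier held at least 99.4% of HSPA1A in every library, a different one in each cell line, and the primary chromosome 6 identifier held almost none.

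Without a compound, the constitutive genes made up most of the family's transcripts. Levels between genes are given in TPM, which corrects for transcript length, summed over the transcripts of each symbol. In DMSO-treated TOV-112D cells HSPA8 led with 1227 and 1269 TPM, followed by HSPA4, a cytosolic HSP110, with 205 and 210.4 TPM. HSPA1A had 139 and 156 TPM, HSPA1B 121 and 128 TPM, and HSPH1, the HSP110 also called HSP105, 84.1 and 86.4 TPM. HSPA13, a small HSP70 associated with microsomes, had 42.8 and 44.1 TPM, and HSPA4L, an HSP110 abundant in testis, 16.8 and 19.0 TPM. The testis-enriched HSPA2 and HSPA1L followed with 2.24 and 2.80 TPM and with 1.80 and 2.03 TPM, and HSPA6 was lowest with 0.306 and 0.480 TPM. No neighbours in this order overlapped, but with 2 libraries each, and with HSPA1A and HSPA1B sharing most of their sequence, the order of adjacent genes is weakly determined.

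The p53-null Saos-2 cells had the same gene on top and the same gene at the bottom. HSPA8 reached 3046 to 3286 TPM and HSPA6 0.255 to 0.382 TPM over 3 libraries. HSPH1 (144 to 171 TPM) stood above HSPA1A (82.6 to 113 TPM) here, and HSPA1A and HSPA1B (63.0 to 86.8 TPM) overlapped. The cell lines differ in far more than p53, so these levels were not tested against each other.

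**Figure D2:**
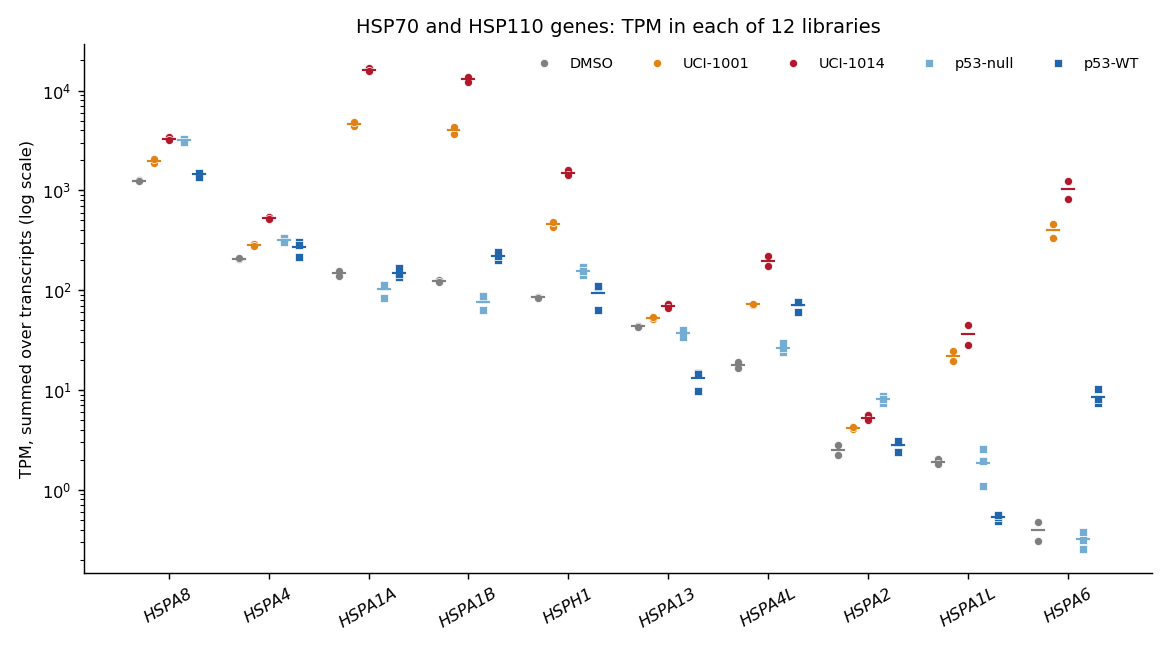
TPM of the 10 genes (log axis), ordered by their mean with DMSO; each point is a library (circles TOV-112D, squares Saos-2) and each short bar a group mean (n = 2 in TOV-112D, n = 3 in Saos-2). HSPA6 spans the widest range, from 0.255 TPM in a p53-null library to 1229 TPM in a UCI-1014 library, and HSPA1A passes HSPA8 with both compounds.

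With UCI-1001 all 10 members were higher than with DMSO at an adjusted p-value under 0.05 (edgeR's quasi-likelihood test, Benjamini-Hochberg over 14177 genes), where 9.39% of all genes tested were called higher. In each member both UCI-1001 libraries lay above both DMSO libraries, which was so for 29.4% of all genes. The log2 fold change exceeded 1 in 6 members (1.18% of all genes), and the median over the 10 members was 2.25, beside 0.0016 over all genes. With UCI-1014 all 10 were higher as well, where 23.7% of all genes were called higher, with both of its libraries above both DMSO libraries in each (35.4% of all genes), 9 members past a log2 fold change of 1 (4.51% of all genes) and a median of 3.87 beside -0.02 over all genes. Both comparisons use the same DMSO libraries, so their values are given side by side and are not independent of each other. In RNA from whole cultures, a higher level in every cell and a larger share of cells with a high level cannot be told apart, nor can fewer cells of a type and less RNA per cell.

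The stress-inducible HSP70 genes rose most. HSPA6, an HSP70 that is hardly transcribed without stress, had 0.618 and 0.433 CPM with DMSO (12 and 8 counts), 465 and 645 CPM with UCI-1001, and 1745 and 1174 CPM with UCI-1014. It went from the lowest level of the 10 genes, a handful of reads, to 335 and 461 TPM with UCI-1001, above HSPA4 (280 to 290 TPM) in the same libraries, and the groups did not overlap. Its rises of 10.02 (SE 0.34, adjusted p = 1.17e-10, edgeR) and 11.41 (SE 0.33, adjusted p = 1.94e-12) on the log2 scale ranked first of all 14177 genes in both comparisons. HSPA7, a near copy on the same chromosome in which 57.0% of the 31-base stretches of HSPA6 also occur, took 0.973% to 1.41% of the summed counts of both in the treated libraries, and the sum rose by nearly the same amount (log2 fold changes of 9.97 and 11.36).

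HSPA1A had 227 and 207 CPM with DMSO, 6441 and 7151 CPM with UCI-1001, and 25117 and 23715 CPM with UCI-1014. HSPA1B had 189.8 and 183 CPM, 5443 and 6542 CPM, and 21007 and 19050.2 CPM in the same order. Both genes therefore separated the groups by far more than the libraries of a group differed. HSPA1A rose by 31.3-fold with UCI-1001 (log2 fold change 4.97, SE 0.06, adjusted p = 2.42e-16, edgeR) and by 113-fold with UCI-1014 (6.81, SE 0.06, adjusted p = 8.75e-18). HSPA1B rose by 32.1-fold and 107-fold (log2 fold changes of 5.01 and 6.75). The sum of the pair, which does not depend on how reads were divided between them, rose by 31.7-fold (log2 fold change 4.99, SE 0.06) and 110.1-fold (6.78, SE 0.07). The share of the pair's counts under HSPA1B was 46.2% ± 0.960 (SD, n = 2) in DMSO, 46.8% ± 1.39 in UCI-1001 and 45.0% ± 0.706 in UCI-1014 libraries. Both UCI-1014 libraries (44.5% and 45.5%) lay slightly below both DMSO (45.6% and 46.9%) and both UCI-1001 libraries (45.8% and 47.8%). An exact two-sided permutation test (p = 0.333 to 0.667) cannot decide whether the groups differ, as 2 against 2 libraries cannot go below 0.333.

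HSPA1L, which shares its upstream stretch with HSPA1A, had 2.99 and 2.71 CPM with DMSO, 29.2 and 37.6 CPM with UCI-1001, and 68.7 and 43.8 CPM with UCI-1014. The libraries of a treatment spread more than for HSPA1A, but the groups did not overlap. Its log2 fold changes were 3.55 (SE 0.25, adjusted p = 2.82e-07, edgeR) and 4.29 (SE 0.24, adjusted p = 2.46e-09). HSPA1A transcripts outnumbered it by far in the same libraries and share some sequence with it, and the part of misassigned reads in the HSPA1L values was not tested.

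Of the HSP110 genes, HSPH1 and HSPA4L rose by more than HSPA4. HSPH1 had 183 and 177 CPM with DMSO, 908 and 1016 CPM with UCI-1001, and 3429.7 and 3097 CPM with UCI-1014. It increased 5.35-fold with UCI-1001 (log2 fold change 2.42, SE 0.06, adjusted p = 1.30e-12, edgeR) and 18.1-fold with UCI-1014 (4.18, SE 0.06, adjusted p = 1.31e-15). HSPA4L had 51.4 and 49.4 CPM, 203 and 222 CPM, and 659 and 536 CPM in the same order, with log2 fold changes of 2.07 (SE 0.09, adjusted p = 1.02e-09) and 3.56 (SE 0.08, adjusted p = 2.65e-13). HSPA4, the HSP110 with the highest level under DMSO, had 326 and 331 CPM, 454 and 472 CPM, and 831 and 759 CPM. Its change was small but well past the spread between libraries, 1.41-fold with UCI-1001 (log2 fold change 0.50, SE 0.04, adjusted p = 2.76e-06, edgeR) and 2.42-fold with UCI-1014 (1.27, SE 0.04, adjusted p = 1.25e-11). With UCI-1014, HSPH1 had passed HSPA4 also per length, at 1416 to 1592 TPM beside 516 to 542 TPM.

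The constitutive HSPA8, and HSPA13 and HSPA2, rose by less than the inducible HSP70 genes. HSPA8 had 1521 and 1505 CPM with DMSO, 2353 and 2585 CPM with UCI-1001, and 4256 and 3994 CPM with UCI-1014, which gave log2 fold changes of 0.71 (SE 0.04, adjusted p = 6.74e-08, edgeR) and 1.45 (SE 0.04, adjusted p = 3.54e-12). Its fold changes of 1.63 and 2.73 were far below those of HSPA1A and HSPA1B. The window of HSPA8 holds the longer pattern 2 times and those of HSPA1A and HSPA1B only the shorter one. A link between these letters and the size of the rise was not tested. HSPA13 had 107 and 106 CPM, 125 and 134 CPM, and 180.1 and 168 CPM. Its log2 fold changes were the smallest of the 10 members, 0.28 (SE 0.05, adjusted p = 0.00118, edgeR) and 0.71 (SE 0.05, adjusted p = 2.21e-08). HSPA2 had 4.84 and 3.95 CPM, 7.03 and 7.34 CPM, and 9.74 and 8.85 CPM, with log2 fold changes of 0.71 (SE 0.15, adjusted p = 0.00618) and 1.07 (SE 0.15, adjusted p = 3.83e-05). The call of HSPA2 with UCI-1001 was lost without DMSO replicate 2 (log2 fold change 0.57, adjusted p = 0.0890) and with DESeq2 (adjusted p = 0.0594), with adjusted p-values of 0.000212 to 0.0890 over 14 alternatives. That of HSPA13 with UCI-1001 was lost in 1 fit over all 12 libraries (log2 fold change 0.25, adjusted p = 0.539), with a range of 2.12e-06 to 0.539.

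**Figure D3:**
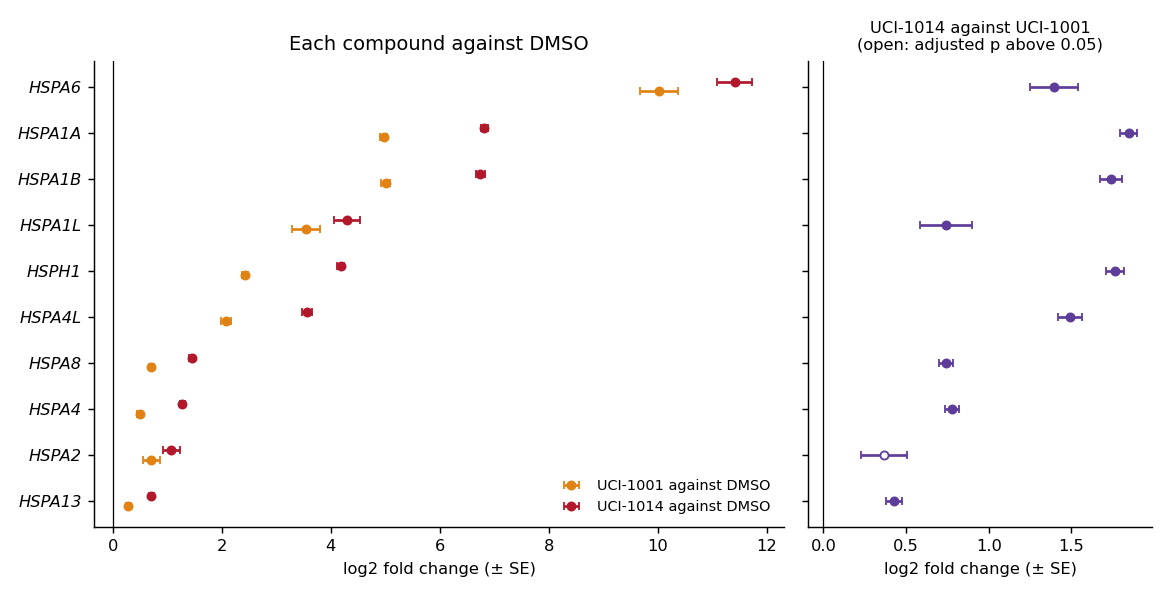
Log2 fold changes of the 10 genes in TOV-112D (points, with SE from edgeR): left, each compound against DMSO; right, UCI-1014 against UCI-1001, where an open point has an adjusted p above 0.05. Every gene lies right of 0 in both panels, HSPA6 farthest at 10.02 and 11.41 against DMSO, and HSPA2 is the open point at 0.37.

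UCI-1014 was set against UCI-1001 to ask whether the exchange of the nitro for a methoxy group went with another size of response at the same time point, with doses that are not known to match. All 10 members had higher levels in both UCI-1014 libraries than in both UCI-1001 libraries, which held for 31.5% of all genes, and 9 of the 10 passed the test, where 17.1% of all genes were called higher. The log2 difference exceeded 1 in 5 members (1.54% of all genes). Its median over the members was 1.09, beside -0.01 over all genes. The largest were HSPA1A (3.59-fold, log2 difference 1.85, SE 0.05, adjusted p = 1.65e-11, edgeR), HSPH1 (3.39-fold, 1.76, SE 0.05) and HSPA1B (3.34-fold, 1.74, SE 0.07). The sum of HSPA1A and HSPA1B was 3.48-fold higher (1.80, SE 0.06). HSPA4L followed with 1.49 (SE 0.07) and HSPA6 with 1.39 (SE 0.15).

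HSPA4, HSPA8 and HSPA1L were higher with UCI-1014 by similar steps, with log2 differences of 0.78 (SE 0.04), 0.74 (SE 0.04) and 0.74 (SE 0.16). HSPA13 was higher by 0.43 (SE 0.05, adjusted p = 9.82e-06, edgeR). For HSPA2 the step of 0.37 (SE 0.14, adjusted p = 0.0586) did not pass, with a 95% interval from 0.07 to 0.67, and adjusted p-values of 0.0260 to 0.306 over 15 alternatives, so that a higher level and a nearly equal one both remain possible. HSPA1L was no longer called with DESeq2 (adjusted p = 0.0749) or in a fit over all 12 libraries (adjusted p = 0.0623), with a range from 4.55e-29 to 0.0749 over 15 alternatives. HSPA13 was no longer called in the fit over all 12 libraries (adjusted p = 0.120, the highest of its 15 alternatives, the lowest being 7.20e-25).

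The changes altered what the family's RNA consisted of. Summed over the 10 genes, the members held 0.185% to 0.191% of all TPM under DMSO, 1.12% to 1.27% under UCI-1001 and 3.41% to 3.77% under UCI-1014. With DMSO, HSPA8 made up 66.4% to 66.5% of the members' TPM, and HSPA1A and HSPA1B together 14.1% to 14.8%. With UCI-1001 the inducible pair made up 72.2% to 72.7% and HSPA8 16.4% to 17.0%, and with UCI-1014 the pair made up 81.2% to 81.9% and HSPA8 9.01% to 9.30%. The pair thus went from 0.212 to 0.223 transcripts per HSPA8 transcript to 4.25 to 4.44 and 8.81 to 9.01. Of all gene counts, the members took 0.265% to 0.271%, 1.68% to 1.92% and 4.96% to 5.40% in the same order.

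**Figure D4:**
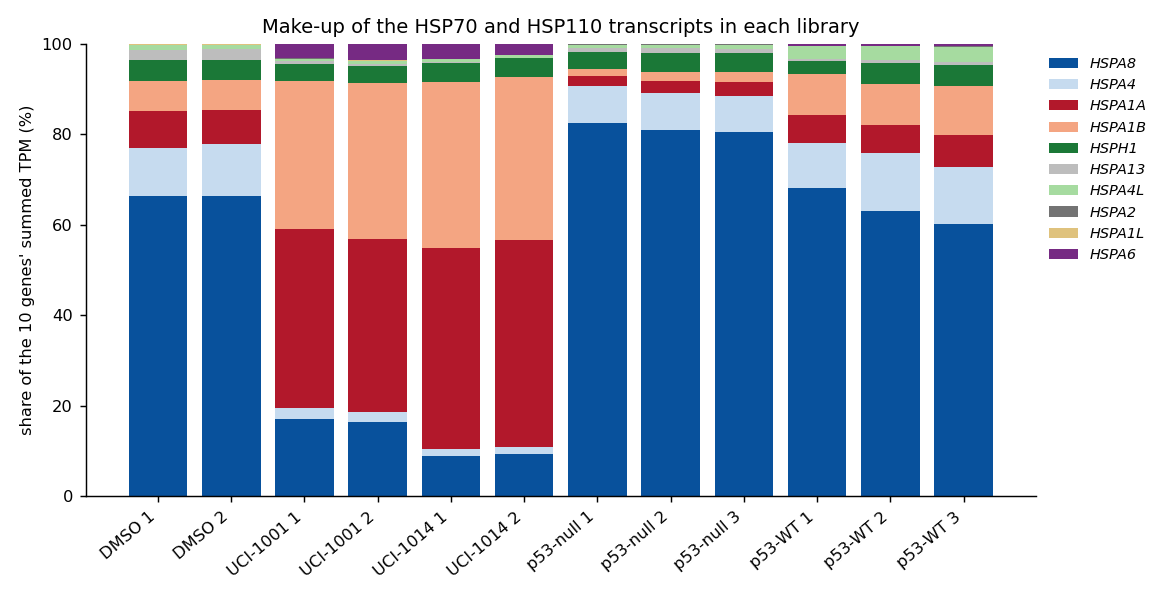
Share of the summed TPM of the 10 genes held by each gene, in percent, in each of the 12 libraries (stacked bars from 0 to 100%). HSPA8 fills 60.2% to 82.6% of the bars of the DMSO, p53-null and p53-WT libraries, and HSPA1A and HSPA1B fill 72.2% to 81.9% of those of the compound-treated ones.

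The Saos-2 pair set cells with induced wild-type p53 against the parental line, without UCI-1001 or UCI-1014. Lentiviral insertion, and possibly doxycycline, differ along with p53, so their parts cannot be told apart. Here the members went in both directions, as did the genes at large. Of the 10 members, 4 were higher in p53-WT than in p53-null cells and 5 were lower, as judged by edgeR at the same threshold over 14275 genes, where 33.5% of all genes were called higher and 33% lower. Past 1 on the log2 scale there were 3 higher members (17.9% of all genes) and 4 lower ones (12.6%). The groups did not overlap in any of the 9 members called, which held upward for 35% and downward for 35.7% of all genes. The split between higher and lower called members was near that of all genes and was not tested against it. The median log2 fold change was -0.21 over the members and -0.01 over all genes. The inducible HSP70 genes and HSPA4L were higher, and HSPA8, HSPH1, HSPA2, HSPA13 and HSPA1L were lower.

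HSPA6 had 0.553, 0.379 and 0.570 CPM in the p53-null libraries (12, 8 and 13 counts) and 15.8, 13.9 and 17.5 CPM in the p53-WT libraries. It rose by 4.95 on the log2 scale (SE 0.20, adjusted p = 5.27e-09, edgeR) but stayed far below its level in compound-treated TOV-112D cells, at 7.43 to 10.1 TPM beside 335 to 1229 TPM. HSPA1B had 117, 128 and 143 CPM in p53-null and 444, 402 and 449 CPM in p53-WT cells, higher by 1.74 on the log2 scale (SE 0.11, adjusted p = 1.69e-07). HSPA1A had 151, 171 and 185 CPM and 304, 263 and 301 CPM, higher by 0.77 (SE 0.11, adjusted p = 0.000107). Neither gene's groups overlapped. The sum of both rose 2.41-fold (1.27, SE 0.11, adjusted p = 2.26e-06, edgeR). The share of the pair's counts under HSPA1B went from 43.4% ± 0.469 (SD, n = 3) to 59.9% ± 0.525, with all 3 p53-WT libraries above all 3 p53-null libraries (exact two-sided permutation test, p = 0.1, the smallest that 3 against 3 libraries allow). The leading HSPA1B identifier's share of that gene also varied between these libraries, and the part of kallisto's division of reads in the larger rise of HSPA1B was not tested.

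HSPA4L had 61.3, 57.9 and 53.3 CPM in p53-null cells and 159.9, 226 and 236 CPM in p53-WT cells, higher by 1.85 on the log2 scale (SE 0.15, adjusted p = 9.98e-07, edgeR). Its lowest p53-WT library was replicate 1, the library that stood apart, and even this lay above every p53-null library. The other HSP110 genes did not follow. HSPH1 had 368, 380.0 and 369 CPM in p53-null and 209, 274 and 284 CPM in p53-WT cells (log2 fold change -0.54, SE 0.13, adjusted p = 0.00278, edgeR). HSPA4 had 509, 483 and 477 CPM and 483, 555 and 561 CPM, and with overlapping groups the difference of 0.12 on the log2 scale (SE 0.10, adjusted p = 0.321, 95% interval -0.11 to 0.35) did not pass. It was called higher without replicate 1 of both groups (0.22, adjusted p = 0.00120), and its sign turned with library totals alone (-0.026), with adjusted p-values of 0.00120 to 0.841 over 15 alternatives. Its mean in TPM, 316 in p53-null and 268 in p53-WT cells, also lay in the other direction.

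HSPA8, the most abundant member in Saos-2, was lower in p53-WT cells. It had 4691, 3918 and 3899 CPM in p53-null cells and 2283, 1997 and 1949 CPM in p53-WT cells. The difference was 2.01-fold (log2 fold change -1.01, SE 0.12, adjusted p = 2.66e-05, edgeR). HSPA13 had 115, 101 and 87.6 CPM and 33.3, 43.4 and 43.4 CPM (log2 fold change -1.34, SE 0.14, adjusted p = 8.80e-06), and HSPA2 had 15.2, 15.6 and 15.1 CPM and 6.07, 6.22 and 6.48 CPM (-1.29, SE 0.12, adjusted p = 2.82e-06). HSPA1L fell from 2.07, 4.08 and 3.29 CPM to 1.11, 0.996 and 1.06 CPM (-1.57, SE 0.28, adjusted p = 0.000434), while HSPA1A, next to it on the opposite strand, was higher. HSPA8 made up 80.5% to 82.6% of the members' TPM in p53-null and 60.2% to 68.2% in p53-WT cells, and the members as a whole held 0.378% to 0.405% of all TPM in p53-null and 0.219% to 0.239% in p53-WT cells. Without replicate 1 of both groups the same 4 members were higher and the same 5 lower, and HSPA4 was then called higher as well.

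**Figure D5:**
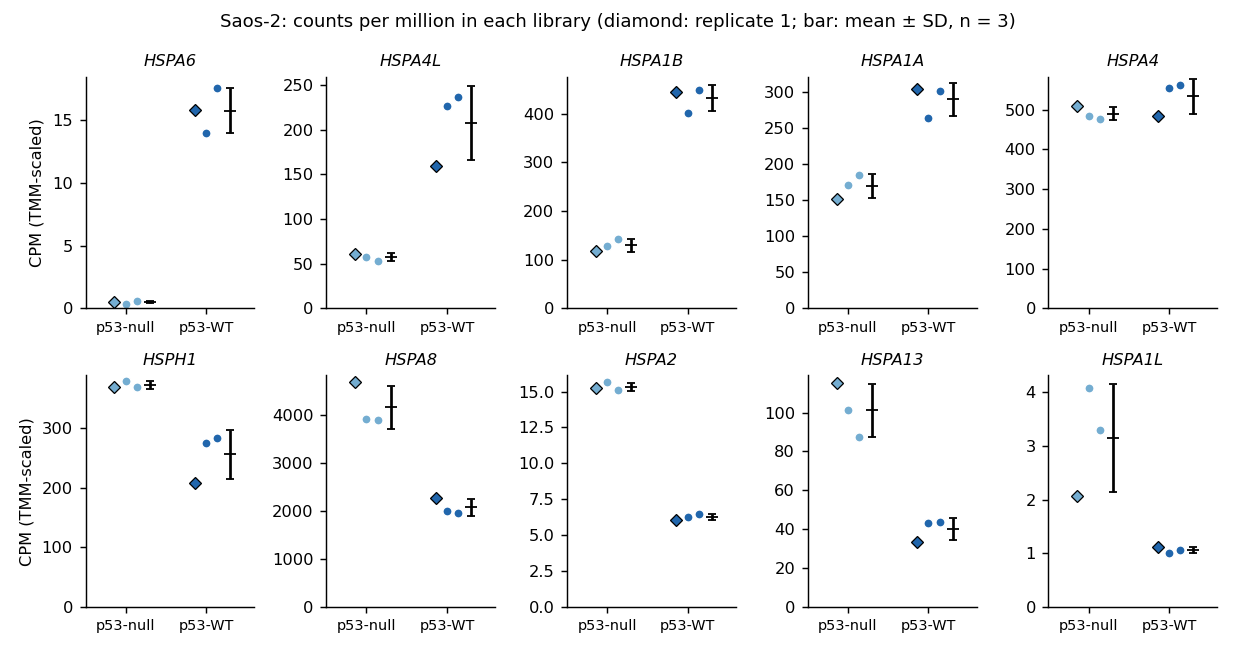
CPM (TMM-scaled) of the 10 genes in the Saos-2 libraries, ordered by log2 fold change; points are libraries, diamonds mark replicate 1, and bars give the mean ± SD (n = 3). The groups overlap for HSPA4 alone. HSPA6 goes from 0.379 to 0.570 CPM up to 13.9 to 17.5 CPM, and HSPA8 from 3899 to 4691 CPM down to 1949 to 2283 CPM.

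The HSP70 partners moved unevenly. Of 17 cochaperones and nucleotide exchange factors, 9 were higher and 1 lower with UCI-1001, 11 were higher and 2 lower with UCI-1014, and 6 were higher and 6 lower of the 16 tested with p53-WT. Over all genes 6.36% were called lower with UCI-1001 and 23.4% with UCI-1014, beside 9.39% and 23.7% called higher. With p53-WT, 33.5% of all genes were called higher and 33% lower. DNAJB1, the J-domain partner of the inducible HSP70, went from 119 CPM with DMSO to 1662 CPM with UCI-1001 and 5073 CPM with UCI-1014 (log2 fold changes of 3.81 and 5.42), and was lower with p53-WT (-0.47). BAG3, a stress-inducible exchange factor, rose by 2.98, 4.80 and 1.59 in the same order. STUB1, a ubiquitin ligase that binds HSP70, and BAG5 were lower with UCI-1014 (log2 fold changes of -0.39 and -0.26), and with UCI-1001 their log2 fold changes of -0.08 and -0.05 were not called. Of the 7 other HSP70 relatives, 2 were higher after UCI-1001 treatment and 3 after UCI-1014 treatment, and 0 were lower with either, and with p53-WT 1 was higher and 2 lower of the 5 tested. The mitochondrial HSPA9 rose by 0.18 and 0.82 on the log2 scale, and HSPA7, the near copy of HSPA6, had 1 and 0 counts with DMSO, 134 and 126 counts with UCI-1001, and 295 and 242 counts with UCI-1014. The HSP70 of the endoplasmic reticulum, HSPA5, named after its values were seen, had log2 fold changes of 0.03 (not called) and 0.26.

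Of 15 other heat shock genes, HSP90 partners and polyubiquitin genes, 13 were higher with UCI-1001 (9.39% of all genes) and all 15 with UCI-1014 (23.7%). With UCI-1014 each of the 15 rose by more than 1 on the log2 scale (4.51% of all genes). With p53-WT 2 were higher and 10 lower of the 14 tested, where 33.5% and 33% of all genes were. This list, like the others, was chosen with earlier results of these data known. CHORDC1, a partner of HSP90, rose by 1.47 and 2.86 and had a log2 fold change of -0.58 with p53-WT. CRYAB, a small heat shock protein, had means of 0.157 CPM with DMSO, 0.597 CPM with UCI-1001 (not called) and 2.39 CPM with UCI-1014, and it was at 0 counts in all p53-null libraries beside 4.11 CPM in p53-WT cells. The transcription regulators themselves were not called higher with either compound. Of the 5 of 7 that could be tested, 0 were called with UCI-1001 and 3 were lower with UCI-1014, where 23.4% of all genes were. Among these 3 were HSF2 (log2 fold change -0.76) and HSF4 (-0.91). HSF1, named after its values were seen, had log2 fold changes of -0.07 (adjusted p = 0.295, edgeR) and -0.08 (adjusted p = 0.177), and was higher with p53-WT (0.66, adjusted p = 0.000382).

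The transcripts to which kallisto assigned the reads differed between the cell lines, which is given as a description with no test. The transcript ENST00000227378.7 held 76.7% of HSPA8's TPM under DMSO, 75.7% under UCI-1001 and 77.6% under UCI-1014, but 31.4% in p53-null and 35.7% in p53-WT cells, where ENST00000534624.5 held 45.1% and 36.3%. Over the p53-WT libraries ENST00000227378.7 ranged from 30.1% to 43.5% and ENST00000534624.5 from 26.1% to 44.6%, so their order there is weakly determined. The 648-base transcript ENST00000515262.1 held 6.78% of HSPA4L's TPM under DMSO, 0.941% under UCI-1001 and 0.270% under UCI-1014, and 33.6% in p53-null and 15.6% in p53-WT cells. Its estimated counts were 7.54 and 5.04 with DMSO, 3.10 and 4.07 with UCI-1001, and 1.03 and 4.09 with UCI-1014. The TOV-112D shares of this transcript thus rest on a few reads, beside a gene total that rose. HSPH1 kept ENST00000380405.7 at 41.6% to 42.5% in the TOV-112D groups. Its ENST00000630972.2 held 10.9% under DMSO, 5.55% under UCI-1001 and 6.19% under UCI-1014, and its ENST00000602786.5 held 34.6%, 38.5% and 40.6%. HSPA6 was represented by the single transcript ENST00000309758.5.

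Over the 12 libraries and 12566 genes tested in both lines, the genes with the pattern most like that of HSPA1A in log2 CPM were ULBP1 (Pearson's r = 0.989), DNAJB1 (0.981) and PTGS2 (0.979). For HSPH1 they were DNAJA1 (0.994), CHORDC1 (0.992) and HERPUD1 (0.988), and for HSPA8 INPP5K (0.982), PRPF38A (0.980) and NECAP1 (0.979). DNAJB1 and DNAJA1 encode J-domain partners of HSP70. The 12 points share their groups and cell lines, so these values describe the pattern over 5 groups and carry no test.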

How the data were processed

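RNA-seq was analysed in 12 libraries of TOV-112D and Saos-2 cells, grouped by their labels. Per the submitters' processing notes and the study's methods, the authors ran kallisto 0.48.0 on GRCh38, collapsed its estimated counts to Ensembl genes as integers, and used DESeq2 1.38.3. The deposited gene table gives raw counts for 40295 identifiers. The deposited file of each library holds the kallisto estimated counts and TPM of 187626 transcripts. Identifiers of 1 symbol were summed; 8043 identifiers without a symbol and those with 25 symbols that read as dates (together 0.622% of the counts) stayed on rows of their own.

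Counts were fitted per cell line with edgeR 4.0.16 (TMM, filterByExpr, glmQLFit, glmQLFTest) in R 4.3.3, with Benjamini-Hochberg adjustment over all 14177 (TOV-112D) or 14275 (Saos-2) genes. CPM are counts per 1000000 of the TMM-scaled library size. The SE is the log2 fold change divided by the square root of F. At these depths 3 counts are 0.122 to 0.169 CPM. TPM entered no test; for 12 identifiers, among them those outside the primary assembly and that of HSPA4, the transcripts were found by matching estimated counts to the gene table in all 12 libraries, within a tolerance of 0.6 counts beyond the truncation. Sequences are from RefSeq (GRCh38.p14), coordinates and transcripts from GENCODE 44. Python 3.11.15, scipy 1.17.1 and Biopython 1.88 were used for the rest, and the fits were tested on simulated data. The simulation took its spread from these libraries and held no replicate that stood apart, and no result here rests on it. Alternatives were RLE factors, library totals, no filter, DESeq2 1.42.0, identifiers not summed, near copies summed, all 12 libraries in 1 fit, a replicate block and leaving out libraries. All 10 members are named, and for each context list the genes with the 2 largest rises and 2 largest falls with UCI-1014 among those called, with exceptions marked. The members and lists were chosen with earlier results of these data known. A further check of the labels is not reported here.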

Additional observations from a re-analysis of the deposited data

How the results depend on the processing

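The counts of members called in each direction kept within 1.5 times their reported value under all 116 alternative values. With 1 library left out, 9 to 10 members were higher with UCI-1001, 10 with UCI-1014, 9 with UCI-1014 against UCI-1001, and 4 higher and 5 lower with p53-WT. Over all alternatives 9 to 10, 10, 7 to 10, and 4 to 5 members were higher. Of 580 alternative log2 fold changes of single members, 571 kept their direction and their side of the threshold. The sign turned in 1 of them, HSPA4 with p53-WT, at -0.026 with library totals alone (0.12 with TMM), and was called in neither. The others that changed were those of HSPA2, HSPA13 and HSPA1L with the compounds and of HSPA4 without replicate 1 of both Saos-2 groups, an alternative chosen after seeing that these libraries lay apart. The cause of these changes was not tested.

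The replicate numbers of the labels were tried as a replicate block, which left 10, 10 and 9 members higher in the TOV-112D comparisons and 4 higher and 5 lower with p53-WT, and changed no call. Same-numbered libraries did not clearly deviate together (r from -0.16 to 0.06 in TOV-112D, and 0.14, 0.09 and 0.07 in Saos-2, where p53-null replicate 2 correlated best with p53-WT replicate 3), so the numbers were not taken to pair them. With the numbers of UCI-1014 crossed in the block, chosen after seeing the data, 10 members were higher than with UCI-1001.

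With 2 libraries per TOV-112D group, small changes such as those of HSPA2 and HSPA13 are the least certain. Low counts limit HSPA6 and HSPA1L without a compound. The division of reads between HSPA1A and HSPA1B is an estimate, and their sum is the firmer value.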
